A study of Mus musculus with 8 samples.

Results

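The clustered replication-dependent histone genes encode the H1, H2A, H2B, H3 and H4 proteins that package newly copied DNA. Members were taken by symbol, as genes named H2ac, H2bc, H3c or H4c plus a number and H1f1 to H1f6, which older annotations call Hist1h and Hist2h genes. There were 63 such genes among the 23360 genes of the data set, 6 of H1, 17 of H2A, 16 of H2B, 12 of H3 and 12 of H4. RNA had been sequenced from white fat of the inguinal pad, which lies under the skin of the groin, in mice 6 weeks old. The 4 control libraries came from mice with floxed Lsd1 alleles, and the 4 knockout libraries from mice in which the same alleles were deleted by an Adipoq-Cre transgene, which is active in adipocytes. Lsd1 is the product of Kdm1a and removes methyl groups from histone H3. No group carried the transgene alone, so effects of Cre and of the Lsd1 deletion cannot be told apart. Which exons were floxed is not given in the sources used here. The labels name the libraries as separate samples without saying that each is a separate mouse, so p-values rest on a spread between samples that may be technical only.

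Most messenger RNAs end in a poly(A) tail, whereas replication-dependent histone messengers normally end just after a short stem-loop, which is bound by the protein Slbp and cut during S phase, when the cell copies its DNA. Several of these genes can also make longer, polyadenylated transcripts that persist in cells that no longer divide. Fat pads hold mainly non-dividing adipocytes, together with immune, vascular and progenitor cells. The labels give total RNA as the molecule, and whether poly(A) RNA was selected is not given in the sources used here.

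The stem-loops of the genes measured here are shown because they define this kind of transcript and differ between H4 and the other classes. The search was for an arm of 6 bases that starts with 2 G and ends with T, a loop of 4 bases with 3 T first, and the reverse complement of the arm, on the sense strand. Of the 11 genes with enough reads to test, 9 held such a match in their GENCODE M21 transcript (GRCm38). So did 40 of the 63 members and 57 of all 55450 annotated genes (0.103%). The arms that can pair are in capitals, written as DNA from 5′ to 3′.
H1f2, H1f3, H1f4, H2ac19, H2bc6, H3c14 and H3c15: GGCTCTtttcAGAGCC
H4c8: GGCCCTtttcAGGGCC
H4c9: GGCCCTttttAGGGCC
The transcripts of H2bc4 and H2bc21 held no such match. In 7 of the 9 the annotated transcript ran on for more than 300 bases past the stem-loop, among them H1f2 (840 bases), H1f4 (1153) and H3c14 (1162). In H4c8 it ended 46 bases after it and in H2ac19 35 bases after it. Among the 52 genes below the test's minimum, 31 held a match and 9 of these ran on for more than 300 bases. The median annotated transcript was 1560 bases in the 11 tested genes and 498 bases in the other 52. These lengths describe the annotation, and which ends were sequenced was not measured.

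The promoters of both genes that passed the genotype test, H1f2 and H4c8, and of H4c9, the other H4 gene with enough reads, are shown for comparison. Each is the 150 bases before the RefSeq start (GRCm38.p6), 5′ to 3′ on the gene's strand, with any CCAAT in capitals, as well as any TATAA and the octamer ATTTGCAT, on either strand.
H1f2, chr13:23738657-23738806, plus strand: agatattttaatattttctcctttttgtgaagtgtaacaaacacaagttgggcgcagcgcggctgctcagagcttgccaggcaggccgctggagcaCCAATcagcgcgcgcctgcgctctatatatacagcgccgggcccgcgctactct
H4c8, chr13:23530894-23531043, plus strand: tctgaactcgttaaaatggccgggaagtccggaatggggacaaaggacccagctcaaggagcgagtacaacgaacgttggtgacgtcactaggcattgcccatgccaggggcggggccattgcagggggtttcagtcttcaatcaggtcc
H4c9, chr13:22041363-22041512, minus strand: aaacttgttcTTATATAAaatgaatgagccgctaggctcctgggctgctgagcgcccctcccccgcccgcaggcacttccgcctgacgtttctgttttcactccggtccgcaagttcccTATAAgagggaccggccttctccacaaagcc
CCAAT was in 83.1% of the 59 promoter windows of members, against 24.5% of all 32851 windows of this length. TATAA was in 52.5% against 14.2%, and the octamer in 16.9% against 0.998%. The tested members had 10 windows, where H2bc6 has more than 1 window and some tested members have none. Of these windows 6 held CCAAT, more than 1 of them from H2bc6, 4 held TATAA and 1 the octamer. The H4c8 window held none of these letters, the H1f2 window held CCAAT and the H4c9 window TATAA. Only exact letters were sought, so near forms were not counted.

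Values are scaled reads, that is, read counts which the authors multiplied by 1 factor per library. The libraries held 25671837 to 32442724 recovered reads. A log2 fold change is the knockout mean less the control mean of log2(value + 1), a scale on which the change of a low gene comes out too small. Limma was fitted over the 14591 genes that reached 10 scaled reads in 4 or more libraries. Kdm1a itself was at 685 to 799 in the controls and 547 to 581 in the knockouts, a log2 fold change of -0.36 (limma adjusted p = 0.0498, SE 0.075), and this call held in 6 of 22 alternatives. It was lost without any 1 library, without control replicates 1 and 2 together, with a pseudocount of 0.5, with no filter or a minimum of 50, with library totals as the scaling and with each of 3 covariates. Skeletal muscle markers were highest in knockout replicates 1, 2 and 4.

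Few of the clustered histone genes were measurable in this fat. Only 11 of the 63 members passed the minimum, and they held 95.8 to 96.7% of all member reads in a library. All members together made up 0.0160 to 0.0194% of a control library and 0.0115 to 0.0144% of a knockout library. Of the other 52 genes, 4 had no read in any library (H2ac1, H2ac23, H2ac24 and H2bc23), and 22, these 4 included, never had more than 3 recovered reads. A count of 3 reads is worth 1.33 to 1.64 scaled reads, which is the limit that a count of 0 allows here. The rest of the H1 class, H1f1, H1f5 and the testis form H1f6, reached at most 6.19. Below the minimum in the H3 class were H3c1, H3c2, H3c3, H3c4, H3c6, H3c7, H3c8, H3c10, H3c11 and H3c13, which reached at most 5.37. Those of the H4 class, H4c1, H4c2, H4c3, H4c4, H4c6, H4c11, H4c12, H4c14, H4c17 and H4c18, reached at most 8.32. In the H2B class these were H2bc1, H2bc3, H2bc7, H2bc8, H2bc9, H2bc11, H2bc12, H2bc13, H2bc14, H2bc15, H2bc18, H2bc22 and H2bc23, with at most 17.6. In the H2A class H2ac4, H2ac6, H2ac7, H2ac8, H2ac10, H2ac11, H2ac12, H2ac13, H2ac15, H2ac18, H2ac20, H2ac21 and H2ac22 had reads, with at most 10.3. H2bc3 was the only 1 of these 52 genes in which the groups did not overlap, at 4.39, 2.46, 2.94 and 4.64 in the controls and 1.09, 1.63, 2.21 and 1 in the knockouts, from 2 to 9 recovered reads. It did not pass when limma was fitted with no filter (log2 fold change -0.89, SE 0.22, adjusted p = 0.227). Among all tested genes the groups did not overlap in 3.58% with the knockouts lower and in 5.06% with the knockouts higher. The share among all genes below the minimum was not counted. Just inside the minimum were H2ac19 and H1f3, with means over both groups of 10.8 and 13.3, and just outside it H2bc18 and H2bc8, with 8.89 and 8.57.

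**Figure D1:**
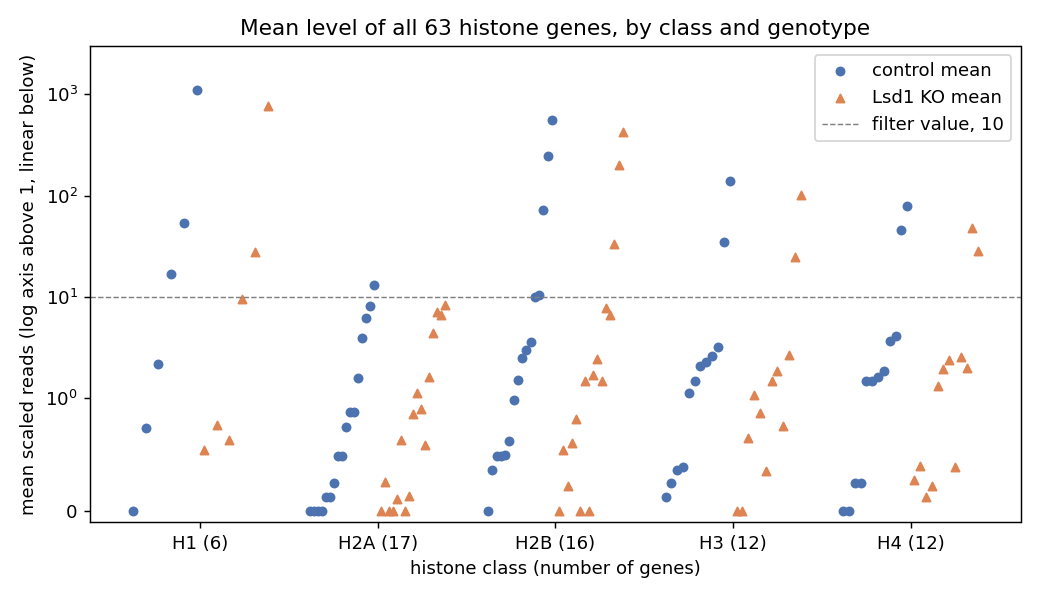
Mean scaled reads of all 63 genes by histone class, with controls as circles, knockouts as triangles and the minimum value of 10 as a dashed line. The vertical axis is logarithmic above 1 and linear below, and H1f2 is the highest, at 1108 in the controls. In H2A no gene stands clear of the rest, with H2ac19, H2ac20 and H2ac6 at 13.3, 8.09 and 6.20 in the controls.

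H4c8 and H1f2 fell in the knockout fat, and no member rose. By limma 2 of the 11 tested members passed as lower, where 0.356% of all tested genes did, and none as higher, where 1.28% did. At an unadjusted p under 0.05, 7 of 11 were lower and none higher, against 5.68% and 8.84% of all genes. The members' median log2 fold change was -0.51, against 0.02 over all tested genes, and 10 of the 11 were negative, against 45.4%. Of these, H1f3 reached the minimum of 10 in every control but only in knockout replicate 2 (14.2). H2ac19 reached it in control replicates 1, 3 and 4 and in knockout replicate 3 (10.6). Both genes thus passed the minimum mainly through the controls, which favours a negative sign. In 4 members, H1f2, H1f4, H2bc6 and H4c8, every knockout library was below every control library, as was so for 3.58% of all tested genes, and in none was every knockout above every control, as for 5.06%. With edgeR on recovered reads, which called 0.288% of all genes as lower, H1f2 and H4c8 passed. With DESeq2, which called 1.95% of all genes as lower, these same 4 members passed. The members had been chosen by name with earlier results of these data known, and they share sequence, so they are not independent of each other.

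**Figure D2:**
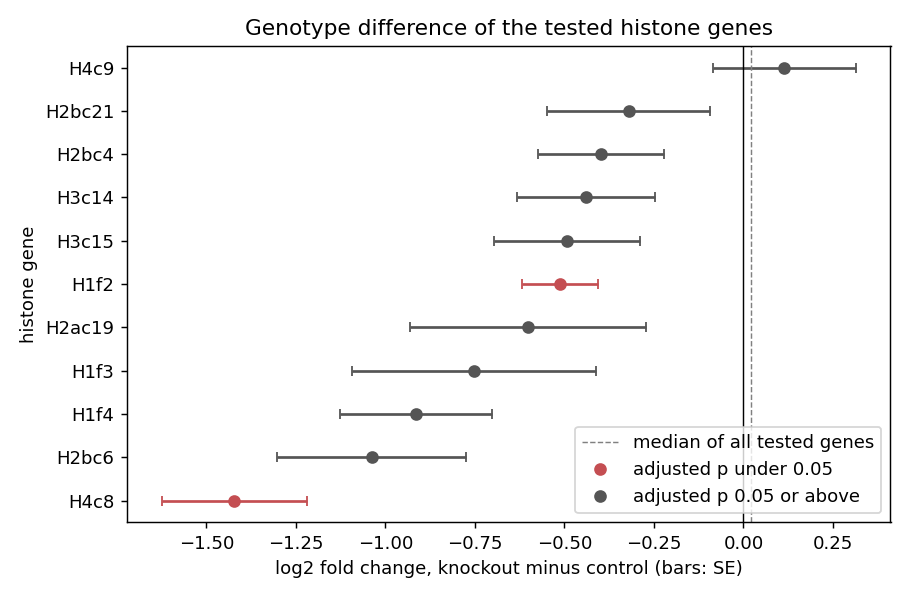
Log2 fold change of each of the 11 tested genes, knockout minus control, with bars for the SE (4 libraries per group) and a dashed line at the median of all tested genes. Values run from -1.42 for H4c8 to 0.11 for H4c9, and H4c8 and H1f2, in red, passed the adjusted threshold.

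The linker histone class was led by H1f2, which encodes histone H1.2, 1 of the somatic linker histones that bind DNA where it enters and leaves the nucleosome. H1f2 (NM_015786; GRCm38.p6 chromosome 13, 23738807 to 23739531) was at 1101, 974, 1024 and 1332 scaled reads in control replicates 1 to 4 and at 706, 797, 753 and 833 in knockout replicates 1 to 4. All knockout libraries were below all controls. The mean fell by 30.3%, from 1108 ± 158 to 772 ± 54.7 (SD, 4 libraries each), a log2 fold change of -0.51 with an SE of 0.11 (limma adjusted p = 0.0468). An exact permutation test, two-sided, gave p = 0.0286, the lowest value possible with 4 libraries a group. This call lay close to the threshold. It was lost without any 1 library other than control replicate 2 (limma adjusted p 0.0601 to 0.140), without control replicates 1 and 2 together (0.116), with no filter (0.154), with library totals as the scaling (0.0504) and with an S phase, B cell or muscle score as a covariate (0.129, 0.0850 and 0.139). The log2 fold change stayed between -0.60 and -0.42 in these 22 alternatives. Per kilobase of its GENCODE transcript H1f2 was the highest member, at 710 in the controls and 495 in the knockouts.

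H1f4, which encodes the linker histone H1.4, was at 39.5, 66.3, 49.0 and 59.8 in the controls and at 27.8, 32.1, 21.7 and 29.5 in the knockouts. The groups did not overlap, with a log2 fold change of -0.91 (SE 0.21), but the gene did not pass (limma adjusted p = 0.0776). H1f3, the gene of H1.3, was at 24.9, 12.3, 11.8 and 19.1 in the controls and at 8.73, 14.2, 5.75 and 9.99 in the knockouts. Its groups overlapped (log2 fold change -0.75, SE 0.34, adjusted p = 0.352). Summed over its 6 genes, the H1 class was at 1056 to 1417 in the controls and 748 to 873 in the knockouts, and H1f2 made up 92.2 to 96.3% of that sum. Without H1f2 the sum was 60.7 to 85.1 in the controls and 28.7 to 46.3 in the knockouts, again without overlap. Most of this remainder was H1f4, with a mean of 53.7 out of 73.6 in the controls and 27.8 out of 39.4 in the knockouts. It is therefore not separate from the H1f4 values above.

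**Figure D3:**
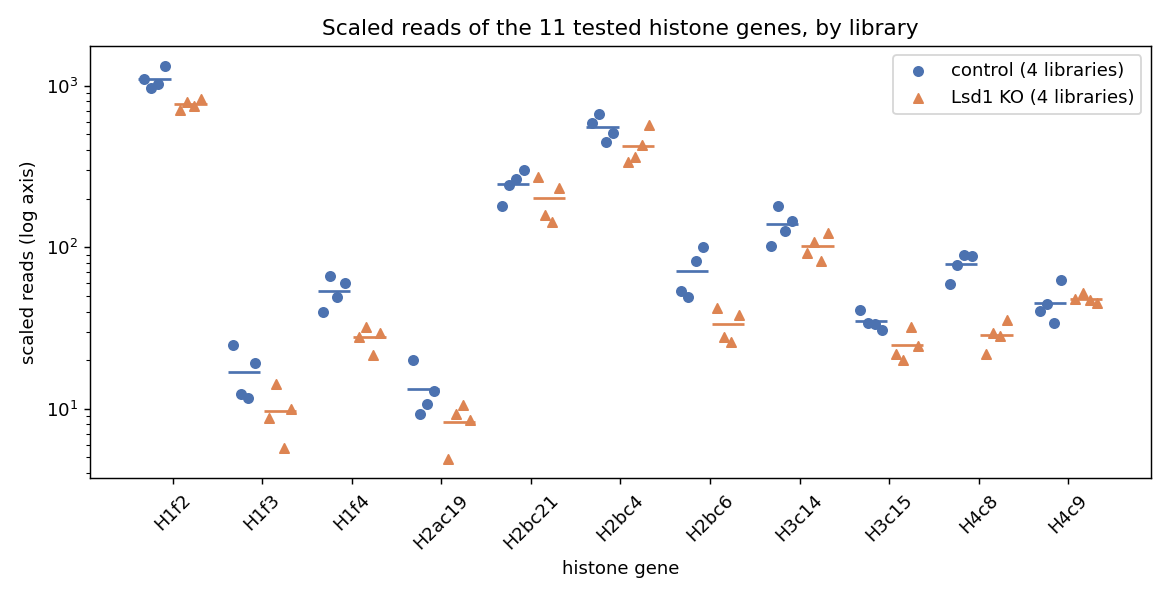
Scaled reads of the 11 tested genes in each library on a logarithmic axis, with controls as circles, knockouts as triangles and horizontal lines at the group means. The groups are apart in H1f2, H1f4, H2bc6 and H4c8 and overlap in the other 7 genes.

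H4c8, 1 of several genes for the same core histone H4, had the largest difference of the tested members. H4c8 (NM_153173; GRCm38.p6 chromosome 13, 23531044 to 23531478) was at 59.1, 78.1, 89.1 and 88.2 in control replicates 1 to 4 and at 21.8, 29.4, 28.3 and 35.5 in knockout replicates 1 to 4. The lowest control was well above the highest knockout. The mean fell by 63.4%, from 78.6 ± 13.96 to 28.7 ± 5.59 (SD, 4 libraries each), a log2 fold change of -1.42 with an SE of 0.20 (limma adjusted p = 0.00811). The exact permutation p, two-sided, was again 0.0286. These values rest on 40 to 182 recovered reads per library. The call was kept in all 22 alternatives, with log2 fold changes of -1.61 to -1.30 and an adjusted p of at most 0.0481, which was reached with the muscle covariate.

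The second H4 gene did not follow it. H4c9 (NM_175656; chromosome 13, 22040960 to 22041362) was at 40.5, 44.7, 33.8 and 62.9 in the controls and at 48.0, 52.2, 47.3 and 44.9 in the knockouts. All knockout values lay within the range of the controls (log2 fold change 0.11, SE 0.20, limma adjusted p = 0.840), and the sign turned without control replicate 3 (-0.013). The value of H4c8 divided by that of H4c9 was 1.46, 1.75, 2.64 and 1.40 in the controls and 0.455, 0.563, 0.598 and 0.789 in the knockouts. On the log2 scale this ratio differed by -1.57, a comparison chosen after the values were seen. H4c8 had the largest fall of the tested members and H4c9 alone had a positive log2 fold change. The choice of this pair thus largely fixed the outcome, and a p-value for the ratio would add no support. The third H4 gene by level, H4c1, was at 1.95, 0.98, 8.32 and 3.61 in the controls and at 0, 5.44, 2.21 and 2.50 in the knockouts, too few reads to read a difference. The H4 class summed to 113 to 168 in the controls and 79.6 to 96.9 in the knockouts. Without H4c8 the sums were 49.0 to 79.9 and 54.8 to 64.8, which overlap.

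H2B, which pairs with H2A in the nucleosome, had 3 measurable genes. H2bc4 was the highest, at 592, 664, 449 and 507 in the controls and 336, 364, 428 and 569 in the knockouts. Knockout replicate 4 lay among the controls, and the gene did not pass (log2 fold change -0.40, SE 0.18, limma adjusted p = 0.340), with -0.20 on the log2 scale without control replicates 1 and 2 together. H2bc21, which is also known as Hist2h2be, was at 181, 243, 265 and 302 in the controls and at 272, 158, 143 and 234 in the knockouts, with overlapping groups (-0.32, SE 0.23, adjusted p = 0.564). Its log2 fold change was -0.17 without knockout replicate 3 and -0.48 without knockout replicate 1. H2bc6 was at 53.7, 49.1, 82.8 and 100.1 in the controls and at 42.0, 27.8, 26.1 and 37.9 in the knockouts. Its groups did not overlap and its log2 fold change of -1.04 (SE 0.26) was the second largest in size among the members, yet it did not pass (adjusted p = 0.102). The 16 H2B genes summed to 823 to 989 in the controls and 574 to 866 in the knockouts, and knockout replicate 4 was the library that overlapped the controls.

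H3c14 and H3c15, 2 genes of the chromosome 3 cluster for the core histone H3.2, carried most of the H3 reads. H3c14 was at 103, 181, 127 and 146 in the controls and at 92.2, 108, 82.7 and 122 in the knockouts (log2 fold change -0.44, SE 0.19, limma adjusted p = 0.332). H3c15 was at 41.0, 33.9, 33.3 and 30.9 in the controls and at 21.8, 20.1, 32.3 and 24.5 in the knockouts (-0.49, SE 0.20, adjusted p = 0.308). In both genes the groups overlapped, for H3c15 through knockout replicate 3 alone. H3c4, the third by level, was at 1.95, 2.95, 3.43 and 4.64 in the controls and 1.09, 4.35, 0.88 and 4.49 in the knockouts. The H3 class summed to 159 to 226 in the controls and 122 to 159 in the knockouts, where the highest knockout library (158.8) came close to the lowest control (159.1).

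H2A, the largest class by number, was the lowest in reads. H2ac19 was at 20.01, 9.34, 10.8 and 12.9 in the controls and at 4.91, 9.25, 10.6 and 8.49 in the knockouts (log2 fold change -0.60, SE 0.33, limma adjusted p = 0.449). Without knockout replicate 1 its log2 fold change was -0.40. H2ac20 was at 6.83, 5.90, 9.30 and 10.3 in the controls and 6.54, 5.99, 7.52 and 6.49 in the knockouts, and H2ac6 at 6.83, 6.39, 5.39 and 6.19 and at 7.63, 8.16, 4.87 and 7.49. All 3 had overlapping groups. The 17 genes summed to 28.5 to 47.8 in the controls and 28.8 to 37.95 in the knockouts. The knockout mean less the control mean of the log2 sum per library was -0.16. This difference was -0.03 without control replicate 1 and -0.28 without control replicate 2.

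Near-identical copies limit how far single genes can be told apart. In the GENCODE M21 transcripts, every stretch of 50 bases of H2ac19 and H3c14 also occurs in another annotated gene, as do 63.5% of those of H3c15. The annotated gene that held all of them was Gm20632 for H2ac19 and Gm20634 for H3c14, and Gm20634 held the 63.5% of H3c15. The share with other histone members alone was not counted for these 3 genes. Their values are uncertain as single genes. For H4c8 the share was 45.8%, with H4c11, H4c1 and H4c2 as the genes that share most. For H4c9 it was 28.9%, for H2bc4 30.6%, for H2bc6 17.9%, for H1f2 8.5%, for H1f3 2.3% and for H2bc21 0. For H1f4 it was 32.0%, with 23.8% found in transcripts of its neighbour H2bc6, so these 2 genes are not fully separate. How the authors treated reads that match several places is not given in the sources used here. Scaled reads per kilobase of GENCODE transcript in the controls were, after H1f2, 478 for H2bc4, 167 for H4c8, 94.5 for H2bc21, 76.4 for H3c14, 62.6 for H4c9, 34.1 for H3c15, 28.5 for H2bc6, 27.8 for H1f4, 25.1 for H2ac19 and 2.29 for H1f3. This order depends on the length used. Per kilobase of the RefSeq gene span, H3c14 (209) came above H4c8 (181), and H4c9 (113) above H2bc21 (92.8), while H1f2 was at 1528 and H1f3 at 21.9. In the knockouts H4c8 stood at 61.1 and H4c9 at 66.2 per kilobase of transcript.

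The tested members lie in 3 groups along the genome. On chromosome 13 between 23531044 and 23934913, 6 of 31 members were tested and all 6 had negative log2 fold changes, from -1.42 to -0.40. On chromosome 3 between 96219885 and 96270192, 4 of 10 were tested, with values from -0.60 to -0.32. The part of chromosome 13 between 21715711 and 22043658 held 22 members, of which H4c9 alone was tested.

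Histone genes whose symbols do not have a member's form did not move together. They were listed by name, and whether each lies outside a histone cluster was not examined. Of 13 tested histone variants and other histone genes, 4 had a negative log2 fold change and 9 a positive one (median 0.07). Among them 1 passed as lower and none as higher, where 0.356% and 1.28% of all tested genes did. The gene that passed was H1f0, a linker histone known to accumulate in differentiated, non-dividing cells. It was at 2162, 2004, 2070 and 2177 in the controls and at 1702, 1601, 1610 and 1582 in the knockouts (log2 fold change -0.37, SE 0.064, limma adjusted p = 0.0214). All knockouts were below all controls. The call was lost in 8 of 22 alternatives, with adjusted p up to 0.114: leaving out any 1 of control replicates 1 and 4 and knockout replicates 2 and 4, leaving out control replicates 1 and 2 together, and adding any of the 3 covariates. The variant genes H3f3b (2988 ± 343 in controls, 2914 ± 285 in knockouts) and H3f3a (1344 ± 141 and 1514 ± 182), which encode the replacement histone H3.3, did not pass (limma adjusted p = 0.914 and 0.511). Macroh2a1, the gene of a large H2A variant, did not pass either (0.13 on the log2 scale, adjusted p = 0.613).

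The machinery that makes and handles histone messengers differed little in these libraries. None of 17 genes of histone gene transcription and 3′ processing passed (median log2 fold change -0.02). Slbp, the stem-loop binding protein, was at 454 ± 36.6 in the controls and 449 ± 41.7 in the knockouts (limma adjusted p = 0.958), and Npat, a coactivator of histone genes, at 214 ± 29.1 and 224 ± 38.8 (adjusted p = 0.885). The highest of this list, Sympk, Cpsf3, Cpsf2 and Cdk2, did not pass (adjusted p 0.423 to 0.994). None of 19 histone chaperone and related genes passed (median -0.03), among them Rbbp4, Nap1l4, Atrx and Nap1l1, the highest (adjusted p 0.444 to 0.932).

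Genes of S phase were not lower alongside the histone genes. Of 30 tested, 20 had a positive log2 fold change and 10 a negative one (median 0.11), where 45.4% of all tested genes were negative. In this list 1 passed as higher and none as lower, where 1.28% and 0.356% of all tested genes did. The gene that passed was Rfc4, a subunit of the clamp loader of DNA replication, at 97.3 ± 12.04 (SD, n = 4) in the controls and 163 ± 23.8 in the knockouts, a log2 fold change of 0.73 with an SE of 0.14 (limma adjusted p = 0.0394). Its call was lost in 11 of 22 alternatives, among them leaving out any 1 library except control replicate 3 and knockout replicate 1. The S phase genes Rrm1, Mcm4 and Mcm5 did not pass (adjusted p 0.616 to 0.980). Of 20 genes of G2 and mitosis 17 had a positive fold change and 3 a negative one (median 0.16), again against 45.4% negative over all genes. None of them passed, with Mki67 at 358 ± 99.5 in the controls and 363 ± 73.2 in the knockouts. The mean log2 value of the S phase list was 7.05 to 7.50 in the controls and 7.28 to 7.41 in the knockouts.

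Marker genes of the cell types in the pad are given here because some moved alongside the histone genes. Adipocyte markers were present at high levels in all libraries, and the 10 genes summed to 432450 to 547330 in the controls and 321350 to 354550 in the knockouts, which do not overlap. Of these 9 had a negative log2 fold change (median -0.26), and Cidec passed as lower, where 45.4% and 0.356% of all tested genes did. The 11 muscle markers found summed to 7295 to 33226 in the controls and 11685 to 173640 in the knockouts (median log2 fold change 2.05, none passed). B cell and lymph node markers (18 genes, all with a positive fold change, median 0.31, none passed) summed to 12935 to 25999 and 19455 to 25839, and macrophage markers (8 genes, median 0.25, none passed) to 23003 to 27854 and 26835 to 33628. Mammary epithelium markers summed to 97.6 to 153 in the controls and 127 to 592 in the knockouts over 12 genes. Of these 3 were tested and none passed, and the milk protein gene Wap was at 0 in every library. Krt5 (237 and 82.2) and Krt14 (137 and 39.7) had reads in knockout replicates 1 and 2. Both were below 1 in every other library and so were not tested. The part of these differences in the histone result was not tested, apart from the covariate fits given above. In bulk tissue, fewer cells of a type and less RNA per cell cannot be told apart.

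**Figure D4:**
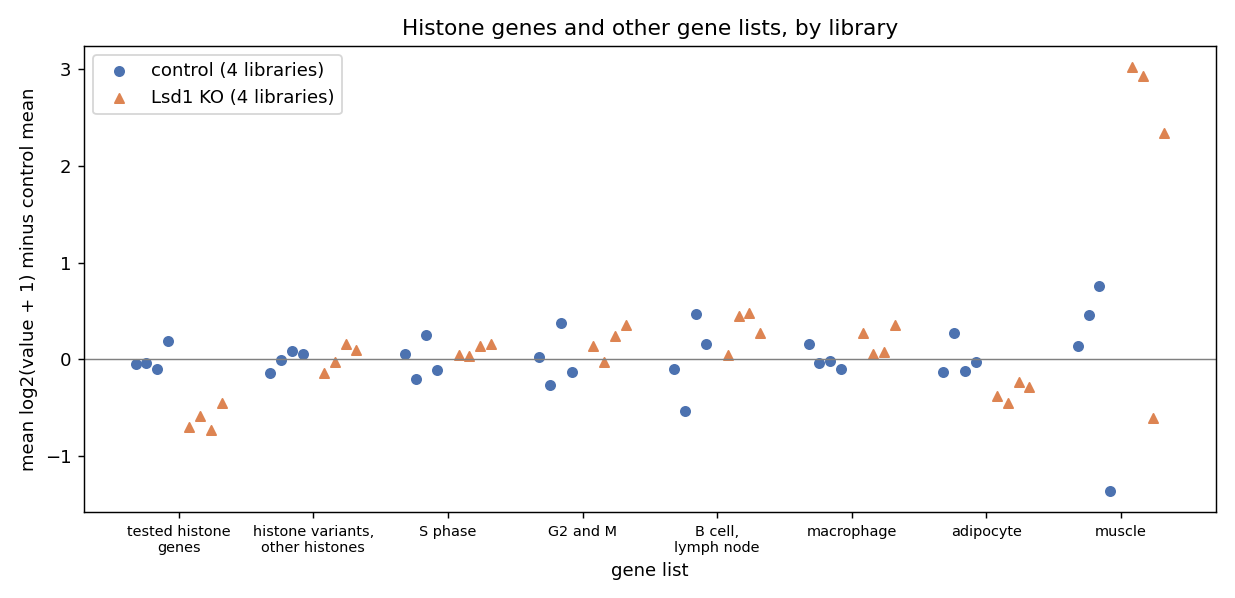
Mean log2(value + 1) of each gene list in each library, minus the mean of the 4 controls, with controls as circles and knockouts as triangles. The tested histone genes and the adipocyte markers were lower in all 4 knockouts than in any control, the S phase, G2 and M, B cell and macrophage lists overlapped, and muscle markers were highest in knockout replicates 1, 2 and 4. The histone mean includes H1f3 and H2ac19, which passed the minimum mainly through the controls.

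**Figure D5:**
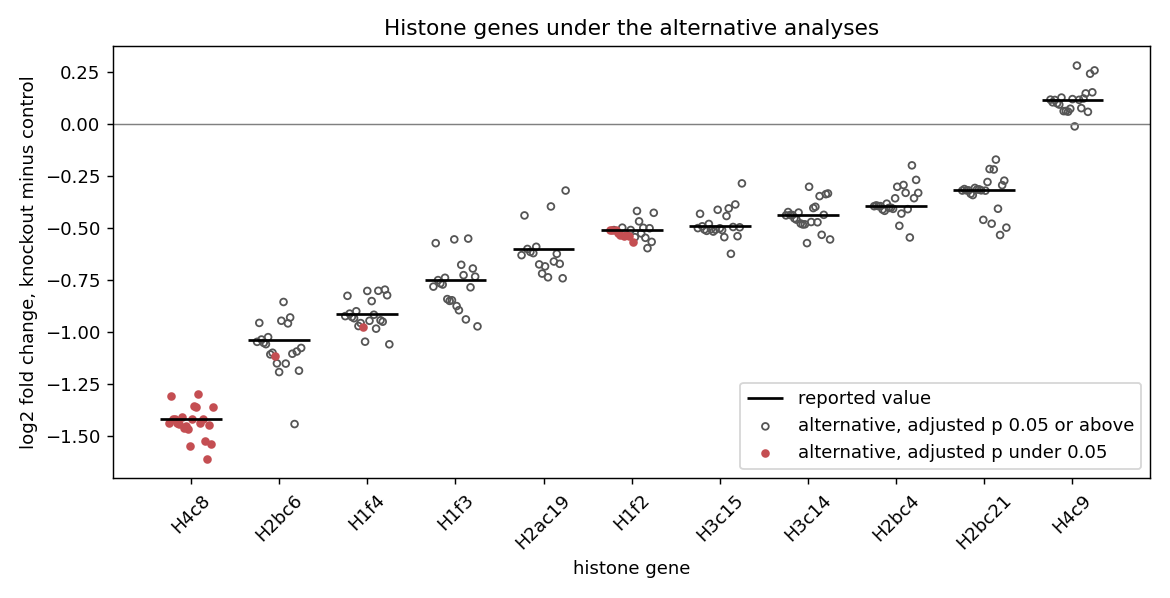
Log2 fold change of each tested histone gene under the alternative analyses, filled red where the adjusted p was under 0.05, with a black line at the reported value. H4c8 was past the threshold in all 22, H1f2 in 9, and H1f4 and H2bc6 in 1 each.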

How the data were processed

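The submitters' processing notes and the design text name TopHat version 2 with mm10 for alignment, HOMER for counting, and edgeR and DESeq 1.8.3 for differences. The deposited values were a signal, read counts multiplied by 1 factor per library: 99.965 to 100% of values above 0 were whole multiples of 1 step (tolerance 0.02). Dividing by the step recovered the reads. A step may be 1 end of a read pair, and intervals or limits cover counting error only.

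Of 23373 rows, 1 had no accession and a value of 0. Accessions were matched to symbols with RefSeq for GRCm38.p6 (22527) and GENCODE M21 (124), 721 kept their accession, and for 12 symbols the row with the lower total was dropped. RefSeq lists H4bc24 for the gene once called Hist1h2br, which does not have a member's form and was at 0. Limma (3.58.1, with trend, log2(value + 1), genotype as the only term, Benjamini-Hochberg over all tested genes, threshold 0.05) was used in R 4.3.3. Alternatives were edgeR (4.0.16) and DESeq2 (1.42.0) on recovered reads, other scalings, pseudocounts and filters, 3 covariates, and leaving out libraries. Lengths per kilobase were GENCODE transcripts, or RefSeq gene spans for comparison, both chosen after seeing the data. Among the tested genes, H2bc4 and H2bc6 kept the transcript length in that comparison, since their spans were long (8282 and 37455 bases). On simulated reads of this comparison (14492 genes tested, 200 changed) limma recovered 40.0% of genes with a 1.5-fold change, 78.0% of those with 2-fold, 94.0% with 4-fold and 96.0% with 8-fold. Of its 158 calls, 4 were false.

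Printed were all tested members, the 3 highest of each class, and from each other histone or cell cycle list those past the threshold and the highest by level. Members and lists were chosen with earlier results of these data known.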

Additional observations from a re-analysis of the deposited data

How the results depend on the processing

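The 239 genes called (187 higher, 52 lower) became 111 with no filter, 776 with DESeq2, 98 without the controls numbered 518 and 517, 127 with the S phase covariate and 111 with the B cell covariate, and 71 to 429 without 1 library. DESeq2 called 492 genes higher and 284 lower. The 2 histone members called became 1 (H4c8) with no filter, with library totals as the scaling, without controls 518 and 517 and with any of the 3 covariates, and 4 with DESeq2 (H1f2, H1f4, H2bc6 and H4c8). Without 1 library they were 1 to 2, and 2 only without control replicate 2. In the 9 alternatives with other tools, scalings, pseudocounts or filters that tested H4c9, its direction held, and without 1 library its log2 fold change ran from -0.013 (without control replicate 3, where the sign turned) to 0.279 (without control replicate 4). For each class, the knockout mean less the control mean of the log2 sum per library was also taken without its highest gene. It went from -0.53 to -0.91 in H1, from -0.16 to 0.0273 in H2A and from -0.64 to 0.00942 in H4. Leaving out 1 library, chosen after seeing the data, gave -0.58 to -0.44 in H1, -0.28 to -0.03 in H2A, -0.54 to -0.34 in H2B, -0.54 to -0.37 in H3 and -0.74 to -0.54 in H4. Summing genes that encode the same protein was not run, since no protein sequences were used here. No paired analysis was possible because the numbers in the sample titles are not shared between genotypes. Low reads limit what can be read from the 52 members under the minimum, none of which passed with no filter. No other tested member reversed in any alternative that tested it.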
